A study of Mus musculus with 10 samples.

Results

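The alpha chains of the T cell receptor (TCR) that use the joining gene Traj18 were examined in splenic regulatory T (Treg) cells. They were taken as every entry whose CDR3, the loop that V and J genes form where they join, ends in the residues GRLHF, the germline end of TRAJ18. This end was found in 6365 of 387286 deposited entries of both chains. Entries of a library with the same CDR3 bases were merged, which left 6293 of 188341 alpha chain (TRA) clonotypes. A clonotype is here a distinct CDR3 base sequence in a library. These TRAJ18 clonotypes held 18042 of 482226 TRA counts, a share of 3.74%, and encoded 1970 different amino acid CDR3s. One of these, the CDR3 of the invariant natural killer T (iNKT) cell receptor, accounted for 46 clonotypes and 841 counts. The other 1969 amino acid CDR3s accounted for 6247 clonotypes and 17201 counts, and are called the other TRAJ18 chains.

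The samples were 5 libraries from CNS4KO mice, which lack the enhancer CNS4 of Foxp3, and 5 libraries from CNS4Flox mice, which carry the floxed enhancer. Foxp3 encodes the transcription factor on which the Treg lineage depends. All mice were untreated, and the stated purpose of the sequencing was the diversity of the TCR repertoire. The labels give no Cre driver, age, sort gate or number of cells, and do not say whether mice were pooled or whether replicates were separate mice. P-values therefore measure only the spread between these libraries, which may be technical. No transcript other than TCR chains was measured, so neither the deletion of CNS4 nor the identity of the sorted cells could be checked.

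Traj18 lies on mouse chromosome 14 (GRCm38, 54200777 to 54200842) and is annotated as a J segment of 66 bases (gene ID 100124371). Such segments are joined to a V gene in the thymus, with bases trimmed and added at the junction, so most CDR3s differ between cells. In iNKT cells, by contrast, TRAJ18 is joined to TRAV11 in a nearly fixed way. The resulting alpha chain pairs with a few beta chains and recognises lipids presented by CD1d. TRAJ18 also occurs, joined to other V genes, in conventional T cells that recognise peptides, and these include Treg cells. The files list alpha chains under beta V and J names, so the alpha V gene is not used here and the chain was read from its CDR3 alone.

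The 4 common base sequences of the invariant CDR3 are shown because they differ at a single base while encoding the same residues. Each has 45 bases, and the capitals mark the codon of residue 4, counted from the first cysteine.

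invariant variant 1: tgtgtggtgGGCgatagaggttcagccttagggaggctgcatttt
invariant variant 2: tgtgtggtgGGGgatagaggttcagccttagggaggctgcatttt
invariant variant 3: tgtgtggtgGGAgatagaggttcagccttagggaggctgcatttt
invariant variant 4: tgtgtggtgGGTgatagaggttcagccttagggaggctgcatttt

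With positions counted from 1 at the first base of the CDR3 and the base of variant 1 first, these are C12G in variant 2, C12A in variant 3 and C12T in variant 4. All 4 possible glycine codons thus stood at the junction, before the 33 bases of the germline J end.

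The largest clonotype of the other TRAJ18 chains in each library is shown beside them, because their sizes are described further on. Capitals mark the bases before the germline J residues. Each CDR3 is named by its residues up to the germline part and by the number of germline TRAJ18 residues kept, so CALG-J11 reads CALG followed by all 11 germline residues.

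CAIE-J9, CNS4KO replicate 1: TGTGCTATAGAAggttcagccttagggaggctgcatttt
CAIDG-J9, CNS4KO replicate 2: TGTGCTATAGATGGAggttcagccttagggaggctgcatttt
CAG-J11, CNS4KO replicate 3: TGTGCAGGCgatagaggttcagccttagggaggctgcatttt
CAAAY-J10, CNS4KO replicate 4: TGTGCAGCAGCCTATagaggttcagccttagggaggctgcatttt
CALG-J11, CNS4KO replicate 5 and CNS4Flox replicate 1: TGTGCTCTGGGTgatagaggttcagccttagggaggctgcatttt
CAVMG-J10, CNS4Flox replicate 2: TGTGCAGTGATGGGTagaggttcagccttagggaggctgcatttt
CAAR-J11, CNS4Flox replicate 3: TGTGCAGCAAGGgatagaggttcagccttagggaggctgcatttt
CG-J10, CNS4Flox replicate 4: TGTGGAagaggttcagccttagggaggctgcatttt
CAASW-J9, CNS4Flox replicate 5: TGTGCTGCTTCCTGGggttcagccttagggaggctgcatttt

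The invariant CDR3 ends in the same bases as CALG-J11, and both hold 15 residues. CG-J10, at 12 residues, is the shortest of those shown.

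TRA counts per library were 40091 to 68224 in CNS4KO and 40547 to 50059 in CNS4Flox. The sources do not state whether the counts stand for reads or molecules, and a count of a transcript cannot tell fewer cells from less RNA per cell. CNS4KO replicate 5 and CNS4Flox replicate 3 shared 154 TRAJ18 clonotypes, the highest number for any pair across the groups. This was 24.0% of the smaller library, below the 24.5% of CNS4KO replicate 4 and CNS4Flox replicate 5. Other pairs across the groups shared as few as 92, CNS4KO pairs shared 75 to 105 and CNS4Flox pairs shared 118 to 166. Results that pass the test are given with and without the pair of CNS4KO replicate 5 and CNS4Flox replicate 3. Nearly absent were CDR3s ending in tryptophan, as those of mucosal-associated invariant T cells do. They came to 10 entries in all, and 0 entries had the CDR3s of those cells. The reason was not tested.

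The part of the alpha chains that used TRAJ18 did not differ between the groups beyond the spread between libraries. Its share of TRA counts was 3.30%, 5.04%, 3.16%, 3.69% and 4.11% in CNS4KO replicates 1 to 5, against 3.86%, 3.64%, 3.30%, 3.93% and 3.47% in the 5 CNS4Flox replicates. CNS4KO replicate 2 stood highest and the groups overlapped. The share averaged 3.86% ± 0.756 in CNS4KO and 3.64% ± 0.264 in CNS4Flox libraries (SD, n = 5 each), a difference of 0.221 percentage points. A two-sided exact permutation test over the 252 assignments of libraries to groups gave p = 0.619, and 0.716 after Benjamini-Hochberg adjustment over 11 values. Without CNS4KO replicate 2 the difference was -0.0735.

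Counting each clonotype once, TRAJ18 made up 3.28% ± 0.153 of TRA clonotypes in CNS4KO and 3.40% ± 0.101 in CNS4Flox libraries (SD, n = 5 each, exact permutation p = 0.159, adjusted 0.249). In edgeR's quasi-likelihood test over 31 TRAJ genes, the log2 fold change of TRAJ18, CNS4KO over CNS4Flox, was 0.08 with a standard error of 0.13 and an adjusted p of 0.867. The percentage of TRAJ genes called in that fit was 0, with 2 at an unadjusted p under 0.05 and 0 called by DESeq2. TRAJ18 ranked 13 of 31 by its mean share of TRA counts, 3.75%. The TRAJ genes whose shares followed that of TRAJ18 most closely over the 10 libraries were TRAJ49, TRAJ11 and TRAJ31, with Pearson correlations of 0.70, 0.59 and 0.47. These describe shares of the same totals, in libraries of both groups together.

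**Figure D1:**
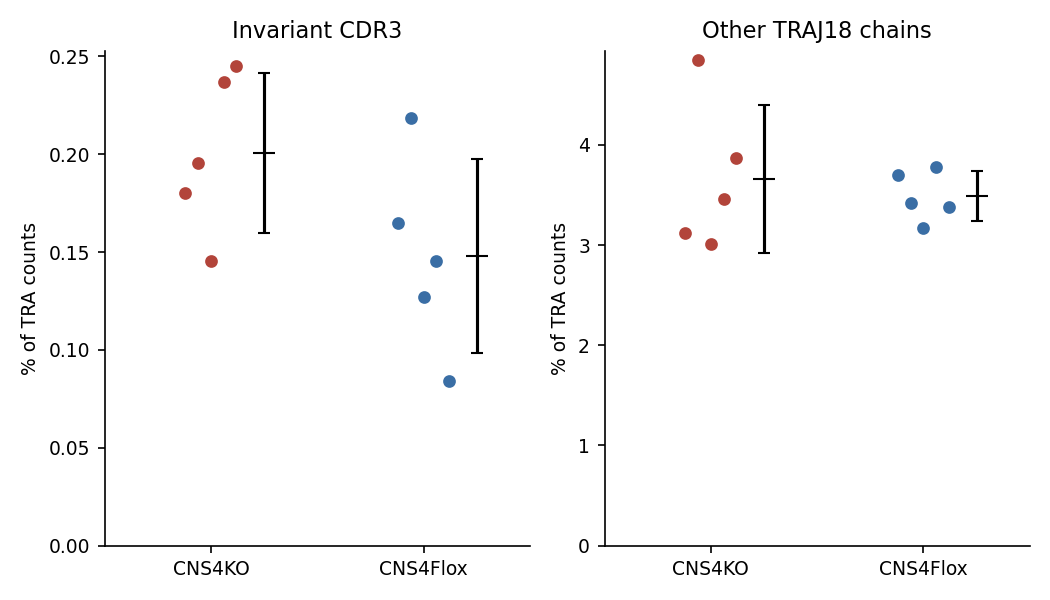
Share of TRA counts, in percent, held by the invariant CDR3 (left) and by the other TRAJ18 chains (right) in each library. Points are libraries, and the black marks beside them are the group mean and SD (n = 5 each). The invariant CDR3 lay between 0.146% and 0.245% in CNS4KO and between 0.0839% and 0.218% in CNS4Flox, and the groups overlap in both panels.

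The invariant CDR3 was present in all 10 libraries. It had 123, 98, 69, 95 and 135 counts in CNS4KO replicates 1 to 5, and 72, 89, 59, 59 and 42 counts in the 5 CNS4Flox replicates. As a share of TRA counts this came to 0.180%, 0.196%, 0.146%, 0.237% and 0.245% in CNS4KO, against 0.165%, 0.218%, 0.127%, 0.146% and 0.0839% in CNS4Flox. CNS4KO replicates 4 and 5 lay above every CNS4Flox library, and the others overlapped. The 95% Wilson interval ran from 0.207% to 0.290% in the highest library, CNS4KO replicate 5, and from 0.0621% to 0.113% in the lowest, CNS4Flox replicate 5. These intervals cover counting error only.

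The mean share was 0.201% ± 0.0411 in CNS4KO and 0.148% ± 0.0495 in CNS4Flox libraries (SD, n = 5 each). The difference of 0.0527 percentage points did not pass the test (exact permutation p = 0.111, adjusted 0.247). Within TRAJ18 counts the invariant CDR3 held 5.27% ± 1.02 in CNS4KO and 4.05% ± 1.29 in CNS4Flox libraries (SD, n = 5 each, exact permutation p = 0.135, adjusted 0.247). In the edgeR fit over 7176 TRA amino acid CDR3s its log2 fold change was 0.44 with a standard error of 0.82 and an adjusted p of 0.914. The plot of shares by library shows these values beside those of the other TRAJ18 chains.

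Among the amino acid CDR3s of TRAJ18, the invariant one ranked 2, 8, 2, 2 and 3 in the 5 CNS4KO replicates, and 1, 1, 3, 3 and 3 in the 5 CNS4Flox replicates. Among all TRA amino acid CDR3s it ranked between 11 and 54 in CNS4KO and between 7 and 64 in CNS4Flox. It was therefore one of the more abundant alpha CDR3s of every library without being the most abundant of any. The beta V genes typical of mouse iNKT cells, TRBV1, TRBV13-2 and TRBV29, together held 14.15% ± 0.920 of beta chain counts in CNS4KO and 14.99% ± 0.604 in CNS4Flox libraries (SD, n = 5 each). These genes are used by many other T cells too, and the files do not pair alpha with beta chains. Whether the invariant CDR3 came from Treg cells or from iNKT cells in the sort was not tested.

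The invariant CDR3 was encoded by 10 base sequences. The 4 common ones, printed above, held 828 of the 841 counts, or 98.5%. Variant 1 had 404 counts and variant 2 had 217 counts, each in all 10 libraries. Variant 3 had 111 counts in 10 libraries and variant 4 had 96 counts in 9 libraries. The 6 rarer sequences had 13 counts together, at most 4 in a library, and none was found in more than 2 libraries. They differed from variant 1 at 1 or 2 bases, among them T15C and A16C, which lie in the germline part.

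The number of invariant sequences did not separate the groups. At 40091 TRA counts per library, 4.55 ± 0.803 were expected in CNS4KO and 4.54 ± 1.10 in CNS4Flox libraries (SD, n = 5 each, exact permutation p = 0.984, adjusted 0.984). Variant 1 had the most counts of the 10 sequences in each of the 10 libraries.

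**Figure D2:**
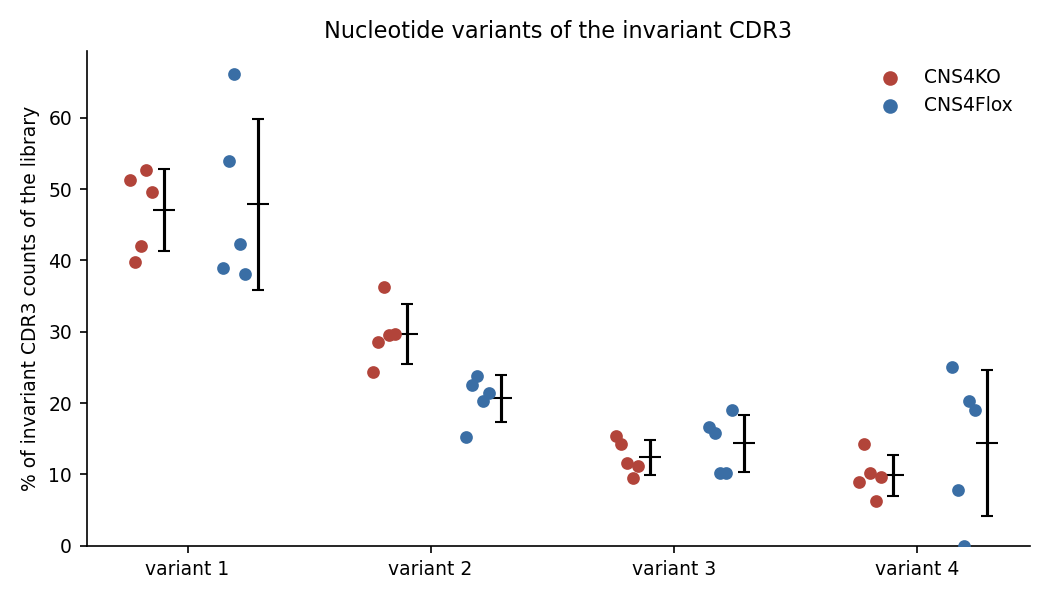
Share of the invariant CDR3 counts of each library, in percent, held by its 4 common nucleotide variants. Points are libraries, and the black marks are the group mean and SD (n = 5 each). Variant 2 lies between 24.4% and 36.2% in CNS4KO and between 15.3% and 23.7% in CNS4Flox, and the groups overlap for variants 1, 3 and 4.

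The mix of variants differed between the groups for variant 2. It had 30, 28, 25, 28 and 40 counts in CNS4KO replicates 1 to 5, and 11, 20, 14, 12 and 9 counts in the 5 CNS4Flox replicates. Its share of the invariant counts was 24.4%, 28.6%, 36.2%, 29.5% and 29.6% in CNS4KO, against 15.3%, 22.5%, 23.7%, 20.3% and 21.4% in CNS4Flox. The groups did not overlap, although the lowest CNS4KO library and the highest CNS4Flox library lay close together. The share averaged 29.7% ± 4.25 in CNS4KO and 20.6% ± 3.25 in CNS4Flox libraries (SD, n = 5 each), a difference of 9.01 percentage points. The exact permutation p was 0.00794, the smallest this design can give, and 0.0317 after adjustment over the 4 variants. The comparison of variants was added after their counts were seen.

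When any single CNS4Flox library was left out, the difference for variant 2 was 7.67 to 9.78 percentage points, but the adjusted p of 0.0635 no longer passed. As a share of all TRA counts it did not pass either (adjusted p = 0.0635). Without CNS4KO replicate 5 and CNS4Flox replicate 3 the difference was 9.79 percentage points with p = 0.0286, the smallest that 4 against 4 libraries allow in the exact permutation test, so no adjusted p under the threshold was possible for this variant alone. Variant 1 held 47.1% ± 5.77 of the invariant counts in CNS4KO and 47.9% ± 12.0 in CNS4Flox libraries (SD, n = 5 each, exact permutation p = 0.849). Variant 3 held 12.4% ± 2.43 in CNS4KO and 14.4% ± 4.01 in CNS4Flox libraries (SD, n = 5 each, exact permutation p = 0.341). Variant 4 held 9.86% ± 2.88 in CNS4KO and 14.5% ± 10.2 in CNS4Flox libraries (SD, n = 5 each, exact permutation p = 0.365). It had 11, 14, 7, 6 and 13 counts in the CNS4KO libraries and 18, 7, 0, 12 and 8 counts in the CNS4Flox libraries, so its spread was widest in CNS4Flox. The plot of variant shares shows the overlap of the groups for these 3 variants.

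CDR3s of the same length as the invariant one and different at a single residue were rare. There were 17 of them, encoded by 39 base sequences with 103 counts in all, against 841 counts of the invariant CDR3. They had 49 counts in CNS4KO and 54 counts in CNS4Flox. Per library they came to 4, 13, 9, 15 and 8 counts in CNS4KO, and 2, 8, 19, 17 and 8 counts in CNS4Flox. No near variant had more than 7 counts in a library, and 8 of the 17 were found in 1 library.

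The changes fell around the junction. Residue 4, the glycine whose codon separates the common variants, was changed in 9 near variants with 44 counts. Residue 5, the first germline J residue, was changed in 5 near variants with 33 counts. Residues 2, 3 and 6 were changed in 1 near variant each, with 5, 20 and 1 counts. No near variant differed at a residue beyond 6. The final residues GRLHF could not differ, because every chain was chosen by that end.

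Near variants found in at least 5 libraries numbered 3. CVLG-J11, with the change V3L, had 20 counts over 9 libraries in 7 base sequences, which lay 2 to 4 bases from the nearest common invariant sequence. CVVV-J11, with G4V, had 26 counts over 7 libraries. CVVGA-J10, with D5A, had 20 counts over 6 libraries. Of all 39 base sequences, 12 with 47 counts lay 1 base from a common invariant sequence, 18 with 43 counts lay 2 bases away, and 9 lay farther.

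The other TRAJ18 chains had fewer distinct clonotypes at equal counts in CNS4KO libraries, with more counts per clonotype on average. Equal counts do not mean equal numbers of cells, which the labels do not give. Whether the sorted cells themselves were less diverse was not tested. The chains without the invariant CDR3 were brought to 40091 TRA counts, the smallest library. At that depth CNS4KO replicates 1 to 5 held 413, 457, 433, 515 and 528 distinct clonotypes, against 754, 675, 623, 634 and 651 in CNS4Flox replicates 1 to 5. The highest CNS4KO library lay below the lowest CNS4Flox library. The mean was 469 ± 50.3 in CNS4KO and 668 ± 52.3 in CNS4Flox libraries (SD, n = 5 each), a ratio of 0.703. The difference of -199 clonotypes had p = 0.00794 in the exact permutation test and an adjusted p of 0.0437.

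At the same depth a clonotype held 3.03, 4.25, 2.79, 2.69 and 2.94 counts on average in CNS4KO replicates 1 to 5, against 1.97, 2.03, 2.04, 2.39 and 2.08 in the 5 CNS4Flox replicates. Every CNS4KO library lay above every CNS4Flox library. The mean was 3.14 ± 0.635 in CNS4KO and 2.10 ± 0.166 in CNS4Flox libraries (SD, n = 5 each), a difference of 1.04 counts with p = 0.00794 in the exact permutation test and an adjusted p of 0.0437. This value is the TRAJ18 counts at that depth over the number of clonotypes, so the 2 results are linked and are not separate evidence.

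Both calls ended without CNS4Flox replicate 1, the library with the most TRAJ18 clonotypes (-177 clonotypes and 1.004 counts, adjusted p = 0.0873 each). The exact permutation p was then 0.00794 for the number of clonotypes, the smallest possible with 1 library left out. For counts per clonotype it was 0.0159. Without CNS4KO replicate 5 and CNS4Flox replicate 3 the differences were -224 clonotypes and 1.07 counts. Each then had p = 0.0286, the smallest that 4 against 4 libraries allow in the exact permutation test, so the adjusted p of 0.157 says nothing about their stability. When clonotypes with a count of 1 were left out, the difference in number was -36.4 with an adjusted p of 0.262. Counts per clonotype then differed by 0.882 (exact permutation p = 0.222, adjusted 0.489). In that setting the equal depth was reset to the smallest TRA total that remained, so it was below 40091 counts. All other TRA chains showed the same direction at 40091 TRA counts with every clonotype kept. They had 13878 ± 1332 clonotypes in CNS4KO and 19058 ± 1582 in CNS4Flox libraries (SD, n = 5 each), a ratio of 0.728. Their clonotypes held 2.80 ± 0.259 counts in CNS4KO and 2.04 ± 0.169 in CNS4Flox libraries (SD, n = 5 each). Whether TRAJ18 differed more than the other chains was not tested.

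**Figure D3:**
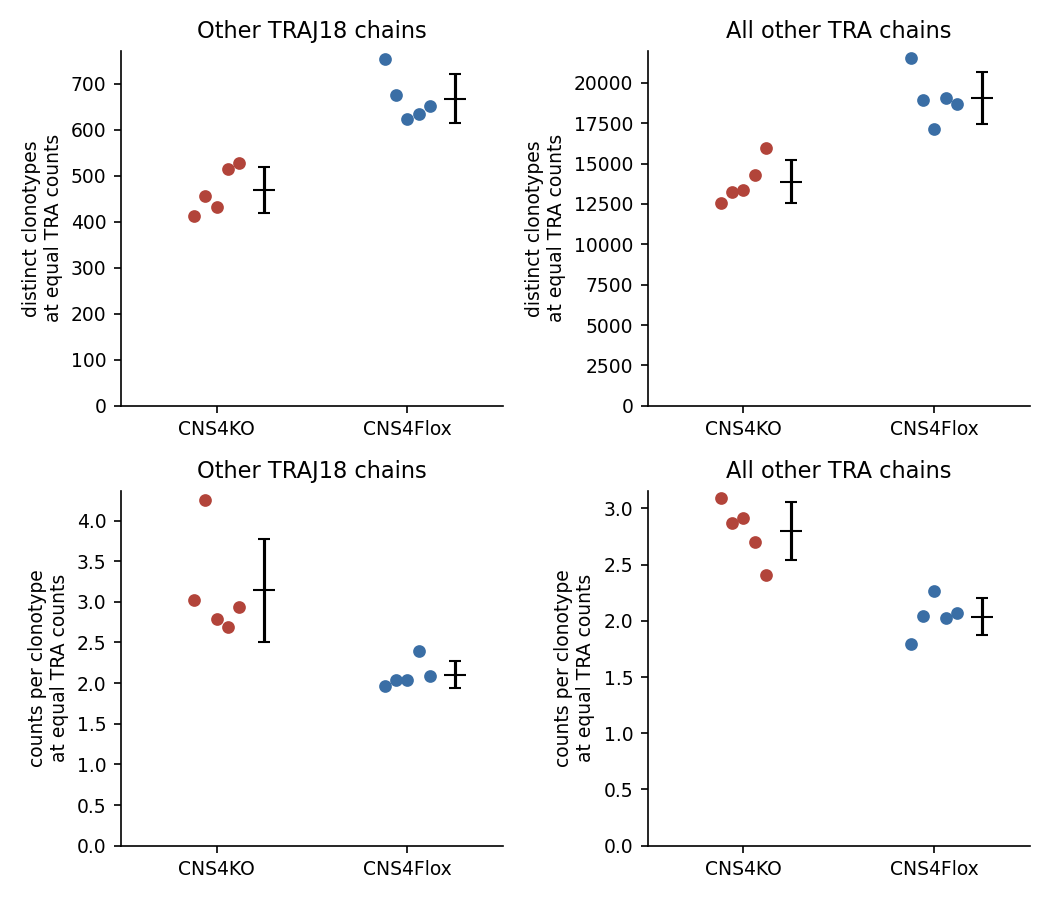
Distinct clonotypes (top) and mean counts per clonotype (bottom) of the other TRAJ18 chains (left) and of all other TRA chains (right), each library brought to 40091 TRA counts. Points are libraries, and the black marks are the group mean and SD (n = 5 each). In all 4 panels the CNS4KO libraries do not overlap the CNS4Flox libraries, with 413 to 528 TRAJ18 clonotypes in CNS4KO and 623 to 754 in CNS4Flox.

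At full depth, which was not matched between libraries, clonotypes counted once made up 55.4% ± 5.22 of the other TRAJ18 clonotypes in CNS4KO and 62.4% ± 2.18 in CNS4Flox libraries (SD, n = 5 each). Large clonotypes varied from library to library. Those with at least 50 counts, also at full depth, numbered 3, 9, 1, 1 and 3 in the 5 CNS4KO replicates, and 0, 0, 1, 2 and 2 in the 5 CNS4Flox replicates. At equal counts the 10 largest clonotypes held 36.2%, 47.5%, 24.8%, 22.5% and 33.7% of the other TRAJ18 counts in CNS4KO, against 11.5%, 14.0%, 19.0%, 29.6% and 17.0% in CNS4Flox. The groups overlapped through CNS4Flox replicate 4. The mean was 32.9% ± 9.97 in CNS4KO and 18.2% ± 6.95 in CNS4Flox libraries (SD, n = 5 each), with an exact permutation p of 0.0317 that did not pass after adjustment (0.116).

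The largest clonotype of each library, printed above, was in most cases private to it. CAIE-J9 had 406 counts in CNS4KO replicate 1, or 19.1% of the other TRAJ18 counts there (95% Wilson interval 17.5% to 20.8%), and its base sequence was in no other library. The same held for CAIDG-J9 with 208 counts in CNS4KO replicate 2, CAG-J11 with 77 in CNS4KO replicate 3 and CAAAY-J10 with 111 in CNS4KO replicate 4. In CNS4Flox it held for CAVMG-J10 with 36 counts in replicate 2, CG-J10 with 194 in replicate 4 and CAASW-J9 with 89 in replicate 5. CAAR-J11 had 53 counts in CNS4Flox replicate 3 and 11 counts in 2 other libraries.

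The sequence printed for CALG-J11 was the most widely found of those shown. It had 265 counts in CNS4KO replicate 5 and was the largest in CNS4Flox replicate 1 as well, with 36 counts. Outside CNS4KO replicate 5 it was found in 7 other libraries with 174 counts. It was not found in CNS4KO replicate 4 or CNS4Flox replicate 4.

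Taken by amino acid CDR3, the 5 other TRAJ18 chains with the highest mean share of TRA counts were CALG-J11, CALS-J11, CAIE-J9, CAA-J10 and CG-J10. CALG-J11 had 63, 28, 40, 15 and 329 counts in CNS4KO replicates 1 to 5, and 46, 23, 61, 9 and 34 counts in the 5 CNS4Flox replicates. CNS4KO replicate 5 held 50.8% of its 648 counts. Its log2 fold change in edgeR was 1.17 with a standard error of 0.87 and an adjusted p of 0.747, and it was -0.18 without that library.

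CALS-J11 was more even, with 15, 83, 66, 41 and 72 counts in CNS4KO and 34, 24, 63, 33 and 36 counts in CNS4Flox. It was encoded by 22 base sequences, 5 to 9 in each library. CAA-J10 had 38, 17, 15, 18 and 36 counts in CNS4KO and 34, 14, 31, 33 and 21 counts in CNS4Flox, and was encoded by 21 base sequences. Neither passed the edgeR test (adjusted p of 0.923 and 0.925). CALG-J11, CALS-J11 and CAA-J10 were each found in all 10 libraries, whereas CG-J10 was found in CNS4Flox replicate 4 alone.

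The edgeR fit over TRA amino acid CDR3s tested those detected in at least 5 libraries. It included 252 of the 1970 TRAJ18 CDR3s, so the other 1718 have no test. The percentage called over all TRA CDR3s tested was 0.125, or 9 of 7176. For TRAJ18, 1 of 252 was called (0.397%), and 18 had an unadjusted p under 0.05. The median log2 fold change of the 252 was -0.33, with 101 higher and 151 lower in CNS4KO. Over all TRA CDR3s tested the median was -0.32, and the share of lower values was 59.9% for TRAJ18 and 60.5% over all.

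The single CDR3 called was CAIE-J9. It had 406, 0, 1, 0 and 0 counts in CNS4KO replicates 1 to 5, and 3, 0, 1, 0 and 1 counts in the 5 CNS4Flox replicates. All but 6 of its counts came from CNS4KO replicate 1, and the other libraries of both groups overlapped. The log2 fold change was 5.59 with a standard error of 1.31 and an edgeR adjusted p of 0.0433. Without CNS4KO replicate 1 it was -1.67 with an adjusted p of 0.748, and without CNS4KO replicate 5 and CNS4Flox replicate 3 it was 5.90 with an adjusted p of 0.00328. With TMM normalisation the adjusted p was 0.0674. A second base sequence of CAIE-J9 carried the remaining counts, in 4 libraries.

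The CDR3s of the other TRAJ18 chains were mostly 14 or 15 residues long. These lengths held 33.4% and 36.0% of clonotypes, and lengths of 13 and 16 residues held 10.2% and 14.5%. The mean length was 14.66 ± 0.0505 residues in CNS4KO and 14.65 ± 0.0421 in CNS4Flox libraries (SD, n = 5 each, exact permutation p = 0.651, adjusted 0.716). The invariant CDR3, at 15 residues, has the commonest length of the group.

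The germline J end was kept nearly whole in most chains. All 11 residues that the invariant CDR3 holds were kept in 19.9% of clonotypes, 10 residues in 51.6%, 9 in 26.4% and 8 in 1.82%. Full ends made up 20.6% ± 1.81 of clonotypes in CNS4KO and 19.4% ± 0.914 in CNS4Flox libraries (SD, n = 5 each, exact permutation p = 0.254, adjusted 0.349). In clonotypes keeping 9 germline residues, 99.5% had bases identical to the end of invariant variant 1. The figure was 88.9% for 10 residues and 89.8% for 11 residues, and the rest had synonymous bases there. Before the germline part stood 4 residues in 30.6% of clonotypes and 5 residues in 34.5%.

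At the V side, 27.4% of clonotypes began with CAL, 26.4% with CAA, 19.9% with CAV, 7.59% with CAM and 4.99% with CAT. The start of the invariant CDR3, CVV, was found in 1.84% of the other TRAJ18 clonotypes. CAL averaged 28.7% ± 2.55 in CNS4KO and 26.4% ± 2.59 in CNS4Flox, and CAA averaged 25.2% ± 1.57 in CNS4KO and 27.4% ± 1.60 in CNS4Flox libraries (SD, n = 5 each). The groups overlapped for both, and starts were not tested.

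**Figure D4:**
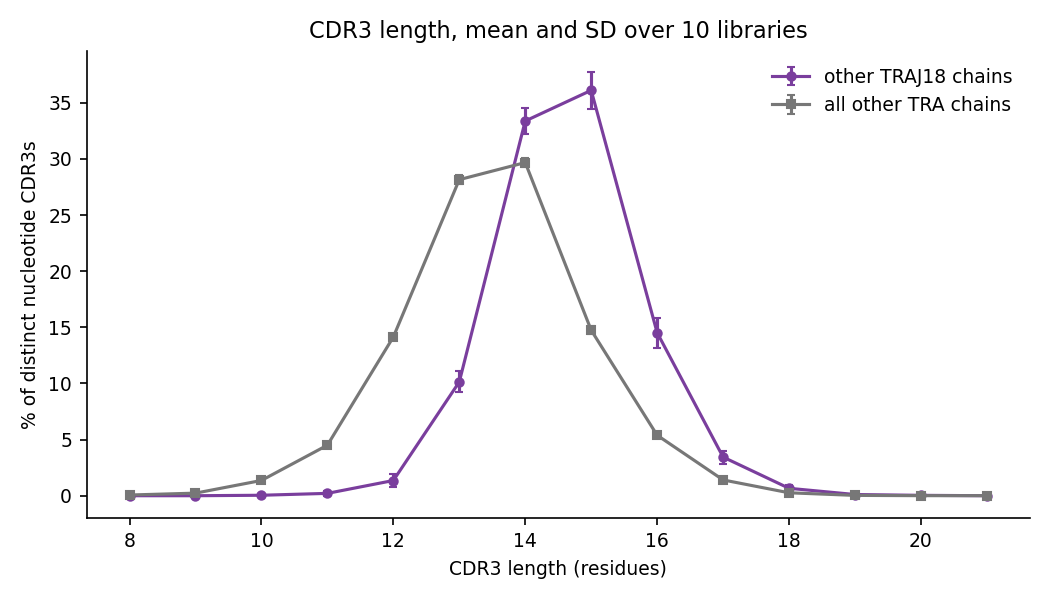
Percent of distinct nucleotide CDR3s (y axis) by CDR3 length in residues (x axis), for the other TRAJ18 chains and all other TRA chains. Points are means over the 10 libraries of both groups, and bars are SDs. TRAJ18 CDR3s were mostly of 14 or 15 residues, and the mean length was 14.65 residues for TRAJ18 and 13.54 for the other chains.

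Within each library the other TRAJ18 chains differed from the remaining TRA chains in several respects. Their CDR3s were longer, with 14.65 ± 0.0443 residues against 13.54 ± 0.0147 in all other TRA chains (SD, n = 10 libraries), longer in 10 of 10 libraries. A two-sided exact sign-flip permutation test gave p = 0.00195 for the difference of 1.11 residues, the smallest p that 10 libraries allow, and 0.0026 after adjustment over 4 values. The plot of lengths shows both distributions. Among the 31 TRAJ genes tested, TRAJ18 ranked 5 by mean CDR3 length.

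More base sequences encoded the same amino acid CDR3 in TRAJ18 chains. There were 1.43 ± 0.0503 per amino acid CDR3 in TRAJ18 and 1.27 ± 0.0329 in all other TRA chains (SD, n = 10 libraries), a difference of 0.169 in the same direction in 10 of 10 libraries (exact sign-flip permutation p = 0.00195, adjusted 0.0026). TRAJ18 ranked 1 of 31 by this value. Counts per clonotype, at 2.84 ± 0.873 in TRAJ18 and 2.61 ± 0.634 in all other TRA chains (SD, n = 10 libraries), did not pass the test, with TRAJ18 higher in 5 of 10 libraries (exact sign-flip permutation p = 0.188). With the invariant CDR3 included the difference was 0.350 counts and passed (adjusted p = 0.0176).

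TRAJ18 CDR3s were also shared more widely. Of the amino acid CDR3s of a library, 42.4% ± 2.83 were found in at least 5 libraries for TRAJ18 and 33.7% ± 2.08 for all other TRA chains (SD, n = 10 libraries). The difference of 8.76 percentage points had the same direction in 10 of 10 libraries (exact sign-flip permutation p = 0.00195, adjusted 0.0026). Libraries share CDR3s with each other, so they are not independent for this value. Without CNS4KO replicate 5 and CNS4Flox replicate 3, the differences were 1.12 residues, 0.162 base sequences per amino acid CDR3 and 9.89 percentage points of sharing. All 3 still passed (exact sign-flip permutation test, adjusted p = 0.0104 each).

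**Figure D5:**
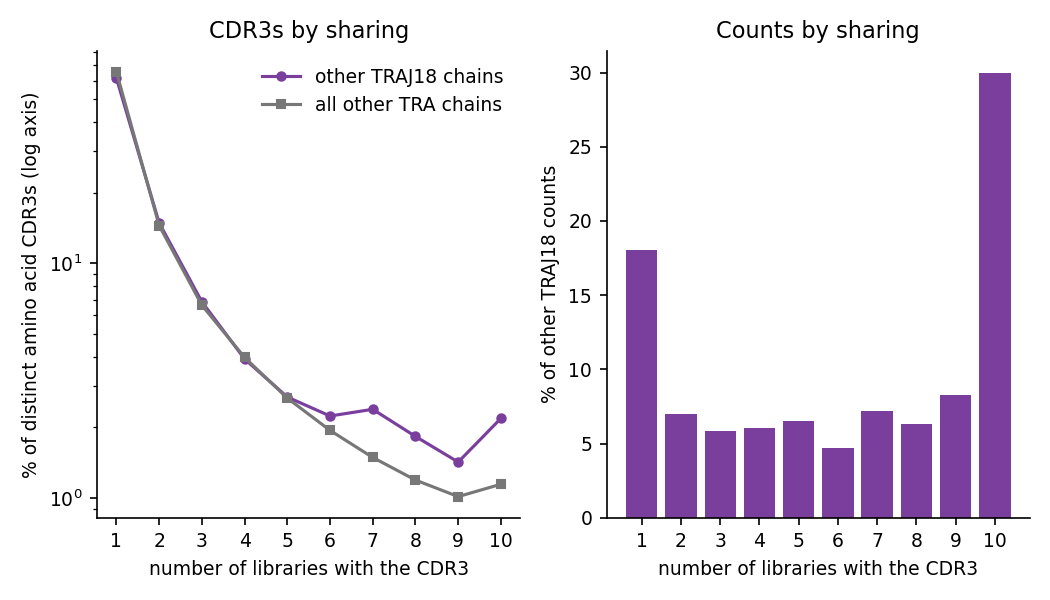
Left: percent of distinct amino acid CDR3s (log axis) by the number of libraries in which they were found, for the other TRAJ18 chains and all other TRA chains. Right: percent of other TRAJ18 counts held by CDR3s of each class. CDR3s of 1 library made up 61.6% of TRAJ18 CDR3s with 18.1% of the counts, and CDR3s of all 10 libraries made up 2.18% with 30.0% of the counts.

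Over all libraries, 1213 of the 1969 other TRAJ18 CDR3s were found in 1 library and 43 in all 10. These are 61.6% and 2.18% of the CDR3s, against 65.5% and 1.14% for all other TRA chains. The plot of sharing shows that the few CDR3s found everywhere held 30.0% of the counts, more than the 18.1% of those found once. The 43 CDR3s of all 10 libraries were shorter, with a mean of 14.2 residues against 15.3 for those of 1 library. They had 4.07 residues before the germline part on average, against 5.60. Each was encoded by 3 to 22 base sequences, with a median of 11.

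CDR3s found in all 10 libraries held 29.7% ± 5.43 of the other TRAJ18 counts in CNS4KO and 30.3% ± 3.36 in CNS4Flox libraries (SD, n = 5 each). Of the 1969 CDR3s, 577 were found in CNS4KO libraries alone, 795 in CNS4Flox libraries alone and 597 in both. These are 29.3%, 40.4% and 30.3%, beside 31.9%, 41.3% and 26.8% for all other TRA chains. CDR3s found in at least 3 libraries of a group numbered 199 for CNS4KO and 272 for CNS4Flox. With all libraries brought to equal counts they numbered 175.6 for CNS4KO and 255.7 for CNS4Flox, as means of 20 random draws. The ratio of CNS4KO over CNS4Flox at equal counts was 0.687 for TRAJ18 and 0.687 for all other TRA chains. These counts are single numbers per group, with no test.

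Overlap between libraries was measured by the Morisita-Horn index of amino acid CDR3s, which is 0 for no overlap and 1 for identical repertoires. It averaged 0.174 over the 10 CNS4KO pairs and 0.397 over the 10 CNS4Flox pairs, with ranges of 0.0595 to 0.325 in CNS4KO and 0.201 to 0.592 in CNS4Flox. Over the 25 pairs across the groups it averaged 0.256. The difference of -0.223 did not pass the test when libraries were permuted (exact permutation p = 0.119, adjusted 0.247).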

How the data were processed

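Deposited tables list the clonotypes of one library each. Per the file headers, the deposited tables give whole-number counts per clonotype and the fraction each count makes of the library total of both chains. The labels name mm10. The aligner and the clonotype caller are not given in the sources used here. Chains were assigned from CDR3 ends of at least 4 residues, using J ends written from general knowledge. TRA ends held 64.0% of counts, and 0.728% matched no end and were left out. V and J names of alpha chains were not used.

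Richness was the rarefied expectation at 40091 TRA counts. Counts per clonotype were the counts scaled to that depth over that expectation. The share of the 10 largest clonotypes was the mean of 20 random draws in each library with more counts than that. Single values per library were compared by exact permutation tests with Benjamini-Hochberg adjustment over 11 values. Chains were compared within libraries by exact sign-flip tests, adjusted over 4 values. Counts per TRAJ gene (at least 10 counts in at least 5 libraries) and per amino acid CDR3 (in at least 5 libraries) were compared with edgeR 4.0.16, with the TRA total as library size. Standard errors given with edgeR were derived from its test, as the absolute log2 fold change over the square root of the F statistic. DESeq2 1.42.0 and TMM were alternatives, beside left-out libraries, count and carry-over filters and a longer CDR3 end. Procedures were tested on simulated data. Other tools were R 4.3.3, Python 3.11.15, scipy 1.17.1, numpy 2.4.6, matplotlib 3.10.9 and pandas 2.3.3.

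Replicates were numbered in the order of the samples. Named CDR3s are the invariant one, its base variants and near variants in at least 5 libraries, the 5 other CDR3s with the highest mean share, those past an adjusted p of 0.05, and the largest clonotype of each library. Members and lists were chosen with earlier results of these data known. The position of Traj18 came from RefSeq (GRCm38).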

Additional observations from a re-analysis of the deposited data

Results flagged for a closer look

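A library was set apart where its gap to the nearest library of its group of 5 exceeded 0.71 of the group's range, a limit that chance passes in about 1 of 20 groups. Of 45 groups examined, 13 passed it. Counts per clonotype of the other TRAJ18 chains stood apart in CNS4KO replicate 2 (4.25) and in CNS4Flox replicate 4 (2.39), and mean CDR3 length in CNS4Flox replicate 2 (14.72 residues).

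The other 10 were shares of TRA counts of named CDR3s, most of which were named for being the largest of that very library, so that a high value there was fixed by the choice. In CNS4KO these were CALG-J11 in replicate 5 (0.597%), CAIE-J9 in replicate 1 (0.595%), CAIDG-J9 in replicate 2 (0.416%), CAAAY-J10 in replicate 4 (0.277%) and CAG-J11 in replicate 3 (0.162%). CAAR-J11, the largest of a CNS4Flox library, also stood apart in CNS4KO replicate 5 (0.0236%). In CNS4Flox they were CG-J10 in replicate 4 (0.478%), CAASW-J9 in replicate 5 (0.178%), CAAR-J11 in replicate 3 (0.114%) and CAVMG-J10 in replicate 2 (0.0884%).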

How the results depend on the processing

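No paired analysis was possible because the labels give no replicate numbers that the groups share. Differences are CNS4KO minus CNS4Flox. With 1 library left out in turn, the number of other TRAJ18 clonotypes differed by -213 to -177 and counts per clonotype by 0.759 to 1.16. Both lost the call without CNS4Flox replicate 1 (adjusted p = 0.0873), without clonotypes of count 1 (-36.4 and 0.882) and at full depth (-169 and 1.33). Without CNS4Flox replicate 1 the exact permutation p was 0.00794 for number and 0.0159 for counts per clonotype. At full depth these were 0.0159 and 0.00794. In both settings 0.00794 is the smallest p the test allows, and alone it cannot pass adjustment over 11 values. Without clonotypes of count 1 the exact permutation p was 0.0397 for number and 0.222 for counts per clonotype (adjusted 0.262 and 0.489). The equal depth was lower there, because it was reset to the smallest TRA total that remained. Why the differences were smaller in that setting was not tested. Without CNS4KO replicate 5 and CNS4Flox replicate 3, a pair chosen after seeing the data, they were -224 and 1.07, at the smallest exact permutation p that 4 against 4 libraries allow (0.0286), so the loss of the call there says nothing about stability. TRAJ18 CDR3s called by edgeR numbered 0 to 3 of 252 with 1 library left out and 0 with TMM. With DESeq2 they numbered 0 (14 at an unadjusted p under 0.05, and CAIE-J9 had no adjusted p there). They numbered 3 of 757 when detection in at least 2 libraries sufficed, and 2 without the pair. Over all TRA CDR3s tested, the percentage called was 0.125 to 0.753 with 1 library left out, 0.0418 with TMM and 0.181 with DESeq2. It was 0.468 with detection in at least 2 libraries and 0.585 without the pair. Counts per clonotype of TRAJ18 over the other chains passed with the invariant CDR3 included (0.350).

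Sign changes occurred only in values that did not pass the test, apart from CAIE-J9. With 1 library left out, the ranges were -0.0735 to 0.397 percentage points for the TRAJ18 share, -0.030 to 0.15 for its log2 fold change, -0.376 to 0.352 for invariant sequences, -0.00687 to 0.0307 residues for length and -3.26 to 3.74 percentage points for variant 1. Log2 fold changes ranged from -0.18 to 1.46 for CALG-J11, -3.28 to 0.50 for CAAR-J11 and -1.67 to 6.48 for CAIE-J9. The TRAJ18 log2 fold change was -0.056 over distinct clonotypes. Invariant sequences differed by -0.238 without the pair and by 0 at full depth. Variant 1 differed by 3.10 without the pair, and variants 1 and 3 by 0.0236 and 0.00335 as shares of TRA counts. The invariant CDR3 had 42 to 135 counts per library, which limits the precision of its shares.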

Other observations

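Over all libraries together, 12.7% of TRAJ18 amino acid CDR3s were found in at least 5 libraries. This ranked 2 of the 31 TRAJ genes tested, after TRAJ22 with 13.3% and almost level with TRAJ12 (12.7%) and TRAJ15 (12.6%). TRAJ18 ranked 6 by counts per clonotype. Base sequences per amino acid CDR3 were 1.43 for TRAJ18, against 1.04 for TRAJ2, which ranked 31 in that value and had the longest CDR3s, at a mean of 15.5 residues. TRAJ12, next after TRAJ18 at 1.39, had a mean length of 13.2 residues.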
